A study of Homo sapiens with 12 samples.

Results

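A set of 9 genes of the B-lymphoid programme were followed in a pair of human acute myeloid leukaemia cell lines. They are the transcription factors and co-factor PAX5, SPIB, POU2AF1, IRF4 and BCL11A, the receptor genes CD79A, CD79B and CD22, and the adaptor gene BLNK. They were taken by symbol, as 9 of the 19504 genes with a symbol in the count table. The genes were chosen by B-lymphoid role with measured values of these libraries known, in particular the higher CD79A and PAX5 of MV4-11 cells under AC220 and the low counts of several members. Values of AC220 against DMSO in MV4-11, and of the comparisons that contain the same AC220 libraries, are therefore a description for the 9 genes: no p-value is given, and counts of calls stand only beside the share called over all genes.

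Transcript 3' ends were sequenced in 4 groups of 3 libraries: MV4-11 exposed to 5 nM AC220 for 24 h, MV4-11 exposed to the vehicle DMSO, and OCI-AML3 under the same AC220 and DMSO exposures. AC220 (quizartinib) is a small-molecule inhibitor of the receptor tyrosine kinase FLT3. MV4-11 carries an internal tandem duplication of FLT3 and a KMT2A-AFF1 fusion, and was established from a leukaemia described as mixed B-lymphoid and myelomonocytic. OCI-AML3 has mutated NPM1 but lacks the FLT3 duplication. Each line stands for 1 leukaemia, so a difference between the lines cannot be told apart from any other difference between those leukaemias. Whether the replicates were separate cultures is not stated in the labels, so p-values reflect only library-to-library spread, possibly technical.

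In B-cell development PAX5 acts with EBF1 and TCF3 to commit lymphoid progenitors, and it activates the genes of the receptor and its signalling chain, CD79A and BLNK among them. CD79A and CD79B pair to form the signalling part of the B-cell receptor. On receptor binding the kinases LYN and SYK phosphorylate this pair, BLNK brings BTK and PLCG2 to SYK, and CD22 recruits the phosphatase PTPN6, which dampens the signal. Leukaemias with a KMT2A fusion are known for mixing lymphoid and myeloid genes.

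Each library held between 10877198 and 16918761 counts, and 3 counts correspond to 0.174 to 0.279 CPM (the count scaled by library size with TMM factors). Both lines carried the myeloid genes of their label: of 10 myeloid markers, 10 in MV4-11 and 9 in OCI-AML3 exceeded 1 CPM in either exposure. Their summed level was 1580 to 1780 CPM in MV4-11 AC220 and 797 to 826 CPM in MV4-11 DMSO, and 1100 to 1220 CPM in OCI-AML3 AC220 and 1100 to 1150 CPM in OCI-AML3 DMSO. The library of MV4-11 AC220 replicate 1 stood apart from the other libraries of its group, with a chi-square per gene of 9.55 and 10.7 against a range of 2.77 to 8.52 over the other replicate pairs. Replicate 3 also differed more from its group in OCI-AML3 AC220 (8.52 and 6.98, against 4.37 for the remaining pair) and in OCI-AML3 DMSO (6.60 and 6.53, against 2.77). Member fold changes that use MV4-11 AC220 replicate 1 are also given without that library.

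Of the 9 members, 6 passed the filter on low counts (PAX5, SPIB, IRF4, BCL11A, CD79A and BLNK) and 3 did not (POU2AF1, CD79B and CD22). SPIB reached the 0.747 CPM that the filter asks for in all 12 libraries. The other 5 passed only through MV4-11, since in OCI-AML3 they reached that level in at most 1 library, and BLNK reached it in the 3 MV4-11 AC220 libraries alone. Entering through MV4-11 favoured a higher level there, though it did not fix the direction under each exposure. Nothing is therefore read from the counts of members called below. In MV4-11, PAX5, SPIB, CD79A and BLNK were higher under AC220 than under DMSO in every library, BCL11A was high under both exposures, and CD79B was near its floor in both. In OCI-AML3, SPIB was the one member above 1 CPM on average. None of the 6 tested members was called there between AC220 and DMSO, though only SPIB had the counts to show a change. In bulk RNA, more cells that carry a transcript and more transcript per cell cannot be told apart.

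**Figure D1:**
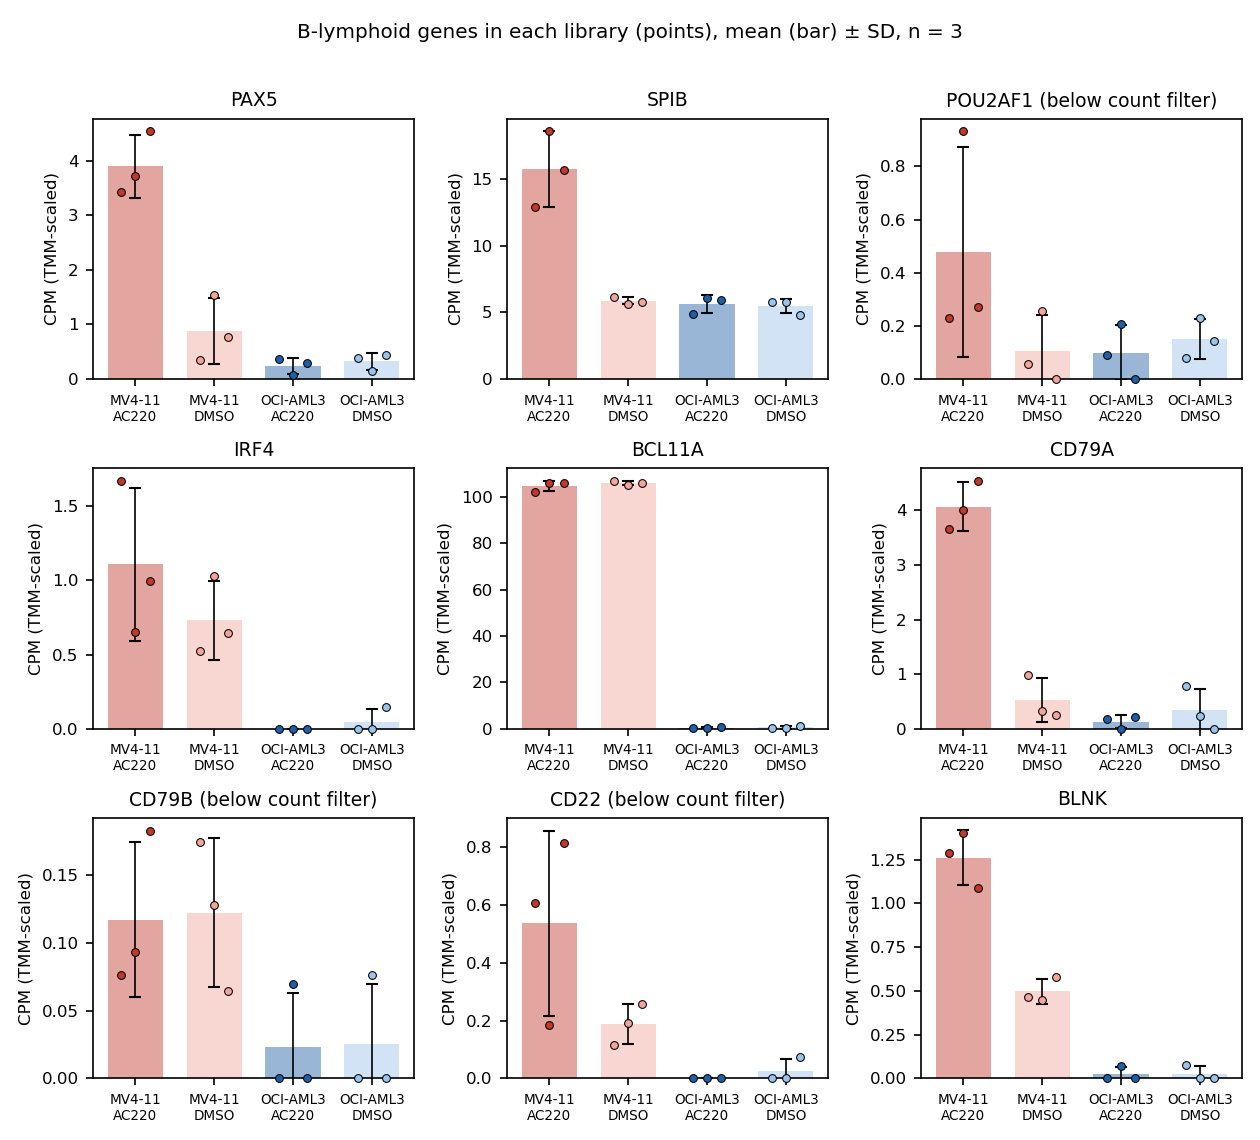
CPM of each of the 9 genes (one panel each, vertical axis from 0, with its own scale) in the 4 groups along the horizontal axis. Points are libraries, bars the mean and whiskers the SD of 3 libraries. PAX5, SPIB, CD79A and BLNK were highest in all 3 MV4-11 AC220 libraries, and BCL11A stood at 102 to 107 CPM in all 6 MV4-11 libraries and at most 1.37 CPM in OCI-AML3.

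Among the transcription factors, PAX5, the commitment factor of the lineage, had 45, 40 and 50 counts in MV4-11 AC220 (3.42, 3.72 and 4.54 CPM), against 6, 24 and 12 counts in MV4-11 DMSO (0.348, 1.54 and 0.772 CPM). All 3 AC220 libraries lay above all 3 DMSO libraries, and the DMSO libraries spread more than 4-fold among themselves, with replicate 2 the highest. The fitted log2 fold change was 2.14 (SE 0.404), and 1.74 to 2.79 when each library in turn was left out (2.23 without AC220 replicate 1). In OCI-AML3, PAX5 had 4, 1 and 4 counts under AC220 and 5, 2 and 6 counts under DMSO.

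SPIB, an ETS factor of B cells and plasmacytoid dendritic cells related to PU.1, had 170, 200 and 173 counts in MV4-11 AC220 (12.9, 18.6 and 15.7 CPM), against 106, 88 and 90 counts in MV4-11 DMSO (6.15, 5.65 and 5.79 CPM). The groups did not overlap, and the log2 fold change was 1.42 (SE 0.166), or 1.55 without MV4-11 AC220 replicate 1. SPIB was the best counted member in OCI-AML3, with 5.65 ± 0.677 CPM under AC220 and 5.46 ± 0.531 CPM under DMSO (SD, n = 3 each). Of the 4 groups MV4-11 AC220 was thus the one that stood apart for SPIB, while the other groups lay within 4.84 to 6.15 CPM.

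BCL11A, a zinc-finger repressor that silences fetal globin in red cells and is needed for B-cell development in mice, was by far the most counted member in MV4-11. It had 1338, 1135 and 1167 counts under AC220 and 1847, 1640 and 1651 counts under DMSO, which came to 104 ± 2.42 and 106 ± 0.950 CPM once library sizes were taken into account. The log2 fold change was -0.02 (SE 0.112), or -0.0016 without AC220 replicate 1, and it stood at 0.08 with limma on the deposited normalised values. In OCI-AML3 the 3 libraries had 4, 4 and 8 counts under AC220 and 4, 2 and 19 counts under DMSO.

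IRF4, the partner of PU.1 and SPIB on composite DNA elements and a driver of plasma-cell development, had 22, 7 and 11 counts in MV4-11 AC220 (1.67, 0.652 and 0.999 CPM), against 9, 16 and 10 counts in MV4-11 DMSO (0.522, 1.03 and 0.643 CPM). The 2 groups overlapped. The log2 fold change was 0.63 (SE 0.513), and 0.19 without MV4-11 AC220 replicate 1, the library with the most IRF4. OCI-AML3 had no IRF4 count in any AC220 library and 0, 0 and 2 counts under DMSO.

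POU2AF1, the co-activator that B cells use with the octamer-binding factors, was too low to be tested. It had 3, 10 and 3 counts in MV4-11 AC220, against 1, 4 and 0 counts in MV4-11 DMSO, and the groups overlapped in CPM. The ratio of summed counts scaled by library size was 4.43 (95% counting interval 1.55 to 15.5), to which AC220 replicate 2 gave 10 of 16 counts. OCI-AML3 had 1, 3 and 0 counts under AC220 and 1, 3 and 2 counts under DMSO.

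Among the receptor genes, CD79A had 48, 43 and 50 counts in MV4-11 AC220 (3.65, 4.0 and 4.54 CPM), against 17, 5 and 4 counts in MV4-11 DMSO (0.986, 0.321 and 0.257 CPM). The groups did not overlap, and DMSO replicate 1 held most of the vehicle counts. The log2 fold change was 2.91 (SE 0.499), a 7.49-fold higher level. It was 3.77 without DMSO replicate 1 and 2.98 without AC220 replicate 1, so the sign did not rest on either library. In OCI-AML3, CD79A had 2, 0 and 3 counts under AC220 and 10, 3 and 0 counts under DMSO.

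CD79B, the chain that pairs with CD79A, stayed at the edge of detection. It had 1, 1 and 2 counts in MV4-11 AC220 and 3, 2 and 1 counts in MV4-11 DMSO, a ratio of 0.924 (95% counting interval 0.192 to 3.89). OCI-AML3 had a single count under each exposure. In GENCODE 29 exons of CD79B overlap those of a protein-coding gene on the same strand (AC127029.3), as do exons of SPIB (AC020909.1), while CD79A has no such overlap. Counts lost or shared there cannot be told apart from a low level, and levels of the chains are not compared.

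CD22, the sialic-acid-binding inhibitory co-receptor, had 8, 2 and 9 counts in MV4-11 AC220, against 2, 3 and 4 counts in MV4-11 DMSO. The groups overlapped through AC220 replicate 2, and the ratio of summed counts scaled by library size was 2.92 (95% counting interval 1.26 to 7.34). OCI-AML3 had no CD22 count under AC220 and 1 under DMSO.

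BLNK, the adaptor between SYK and its effectors, had 17, 15 and 12 counts in MV4-11 AC220 (1.29, 1.40 and 1.09 CPM), against 8, 7 and 9 counts in MV4-11 DMSO (0.464, 0.449 and 0.579 CPM). The groups did not overlap, with a log2 fold change of 1.33 (SE 0.489), or 1.31 without AC220 replicate 1. OCI-AML3 had 1 count under AC220 and 1 under DMSO. In GENCODE 29 (GRCh38) exons of BLNK overlap those of ZNF518A on the opposite strand of chromosome 10, and the strand setting of the counting was not given in the sources used here. ZNF518A had 543, 420 and 408 counts in MV4-11 AC220 and 518, 477 and 454 counts in MV4-11 DMSO, with 145 to 232 counts in OCI-AML3 AC220 and 157 to 209 counts in OCI-AML3 DMSO. Its part in the BLNK counts was not tested. Exons of PAX5 (AL161781.2) and POU2AF1 (AP002008.2) also overlap those of a gene on the opposite strand. Exons of CD22 overlap those of MIR5196 and U62631.1 on the same strand. The part of these genes in the member counts was not tested either.

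Over the members that passed the filter, 4 of 6 were called higher in MV4-11 AC220 at an adjusted p under 0.05 (edgeR's quasi-likelihood test, Benjamini-Hochberg over all genes) and none lower, where 31.5% of all 12392 tested genes were called higher and 58.3% in either direction. The libraries of 4 of the 9 members did not overlap in the higher direction, against 33.5% of all tested genes, a set without POU2AF1, CD79B and CD22. Since this comparison was known when the members were chosen, nothing is read from these counts. The call on BLNK did not hold by DESeq2, without the count filter, or when MV4-11 AC220 replicate 1 or 2 or MV4-11 DMSO replicate 1 or 2 was left out.

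The starts of the 4 genes that stood higher in MV4-11 AC220, and of BCL11A, are shown because these genes moved together or differed between the lines. Promoters of 7 of the 9 members were matched in RefSeq (GRCh38.p14), each 5′ to 3′ on the gene's strand. Each ran from 250 bases before to 50 bases after the one start listed per gene. For BCL11A, and for CD22 (sequence not shown), that start lay well inside the GENCODE 29 gene. Capitals mark matches to the octamer ATGCAAAT, a composite ETS-IRF element, the EBF core CCCNNGGG or the E-box CAGCTG on either strand, with no overlap among the matches.
CD79A (chr19:41877029-41877328, plus strand): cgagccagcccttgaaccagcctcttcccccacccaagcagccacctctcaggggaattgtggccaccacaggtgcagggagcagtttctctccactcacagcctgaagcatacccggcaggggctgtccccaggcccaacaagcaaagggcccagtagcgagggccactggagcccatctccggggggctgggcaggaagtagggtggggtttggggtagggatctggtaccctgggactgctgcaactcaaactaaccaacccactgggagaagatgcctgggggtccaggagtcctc
PAX5 (chr9:37034219-37034518, minus strand): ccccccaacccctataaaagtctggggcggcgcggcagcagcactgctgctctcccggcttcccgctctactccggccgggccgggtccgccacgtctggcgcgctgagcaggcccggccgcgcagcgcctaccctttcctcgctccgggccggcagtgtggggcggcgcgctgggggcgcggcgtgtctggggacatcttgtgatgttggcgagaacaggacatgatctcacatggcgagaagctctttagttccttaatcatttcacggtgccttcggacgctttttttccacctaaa
SPIB (chr19:50418688-50418987, plus strand): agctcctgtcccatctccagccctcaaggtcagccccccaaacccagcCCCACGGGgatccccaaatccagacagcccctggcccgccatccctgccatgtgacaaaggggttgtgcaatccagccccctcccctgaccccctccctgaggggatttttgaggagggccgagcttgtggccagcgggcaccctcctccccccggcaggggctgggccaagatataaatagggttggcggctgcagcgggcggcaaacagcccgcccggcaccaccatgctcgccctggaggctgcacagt
BLNK (chr10:96271520-96271819, minus strand): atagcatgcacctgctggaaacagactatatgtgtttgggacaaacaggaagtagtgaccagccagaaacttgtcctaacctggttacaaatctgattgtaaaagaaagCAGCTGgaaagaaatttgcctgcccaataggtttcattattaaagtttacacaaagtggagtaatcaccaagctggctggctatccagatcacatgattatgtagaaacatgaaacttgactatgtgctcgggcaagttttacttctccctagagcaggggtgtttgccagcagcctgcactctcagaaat
BCL11A (chr2:60528486-60528785, minus strand): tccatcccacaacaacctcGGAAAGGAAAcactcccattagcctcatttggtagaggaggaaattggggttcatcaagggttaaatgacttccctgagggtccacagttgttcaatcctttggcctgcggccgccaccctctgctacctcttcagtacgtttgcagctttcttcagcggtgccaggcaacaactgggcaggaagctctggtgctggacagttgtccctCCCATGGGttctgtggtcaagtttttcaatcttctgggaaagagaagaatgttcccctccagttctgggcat

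The EBF core was present in 2 of the 7 member promoters (SPIB and BCL11A), against 19.1% of all 35116 promoters of that length. The E-box was in 1 of 7 (BLNK) against 17.9%, the ETS-IRF element in 1 of 7 (BCL11A) against 2.82%, and the octamer in 0 of 7 against 1.77%. The windows of CD79A and PAX5 held none of the 4 motifs, which says only that these letters are not in these windows.

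The same AC220 exposure in OCI-AML3 asks whether the B-lymphoid genes differ in a line without the FLT3 duplication. None of the 6 tested members was called by edgeR's quasi-likelihood test, against 3.95% of all tested genes, and 0 had an unadjusted p under 0.05. DESeq2, which gave an adjusted p for 2 members, and limma-voom also called 0. SPIB, the member with the counts to show a change, had a log2 fold change of 0.06 (SE 0.185, adjusted p = 0.905), and its ratio of summed counts scaled by library size was 1.05 (95% counting interval 0.867 to 1.27). CD79A had a log2 fold change of -1.30 (SE 0.996, adjusted p = 0.496) from 5 counts under AC220 and 13 under DMSO, PAX5 of -0.49 (SE 0.767, adjusted p = 0.778) from 9 and 13 counts, and BCL11A of -0.61 (SE 0.547, adjusted p = 0.578) from 16 and 25 counts. The 95% counting intervals of their AC220 over DMSO ratios were 0.109 to 1.16 for CD79A, 0.264 to 1.77 for PAX5 and 0.323 to 1.26 for BCL11A. These intervals cover counting error only, and the CD79A libraries within each group spread more widely, up to 10 counts in one DMSO library and 0 in another. IRF4 with 0 and 2 counts, BLNK with 1 and 1, CD22 with 0 and 1, CD79B with 1 and 1 and POU2AF1 with 4 and 6 counts in all under AC220 and DMSO allow no statement on a change.

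**Figure D2:**
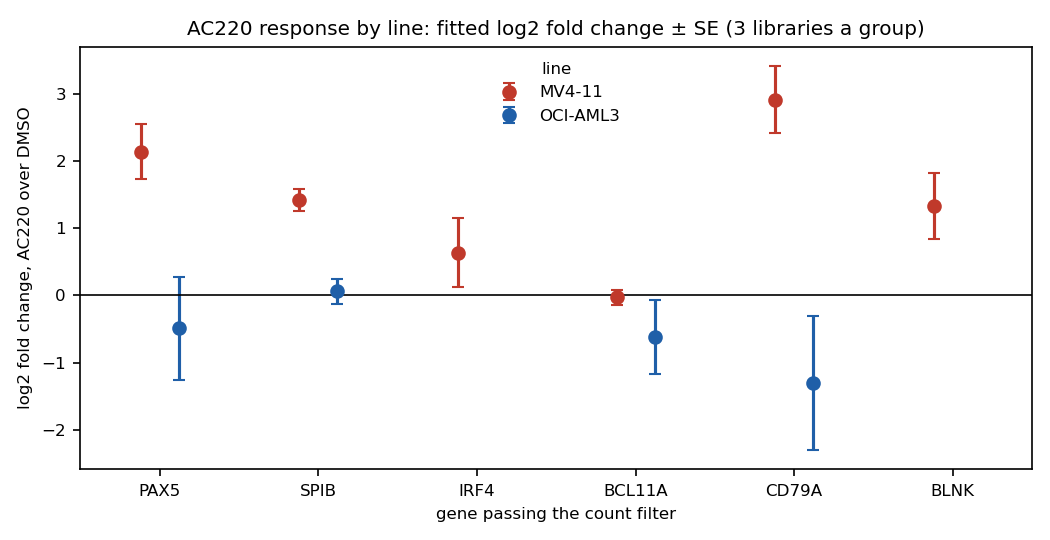
Fitted log2 fold change of AC220 over DMSO (vertical axis) with its SE for the 6 genes that passed the count filter (horizontal axis), in MV4-11 (red, left) and OCI-AML3 (blue, right), 3 libraries a group. IRF4 and BLNK are not drawn for OCI-AML3, where they had 2 counts or fewer in a group. CD79A, PAX5, BLNK and SPIB lay above 0 in MV4-11 by more than their SE, and SPIB in OCI-AML3 lay at 0.06.

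The difference of the AC220 responses, MV4-11 minus OCI-AML3, was 4.21 (SE 1.13) on the log2 scale for CD79A, 2.63 (SE 0.886) for PAX5 and 1.36 (SE 0.249) for SPIB. Without MV4-11 AC220 replicate 1 these were 4.29, 2.72 and 1.49. It was 0.59 (SE 0.558) for BCL11A, and -0.82 without OCI-AML3 DMSO replicate 3, which held 19 of the 25 vehicle counts. Of the 6 members 3 were called higher in this comparison (CD79A, PAX5 and SPIB), where 23% of all tested genes were called higher and 46.7% in either direction, and nothing is read from this count because it contains the known comparison. Without OCI-AML3 DMSO replicate 1, SPIB alone was called, and PAX5 lost its call without OCI-AML3 AC220 replicate 2 or OCI-AML3 DMSO replicate 3.

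Under DMSO the 2 lines were compared directly, which shows how much of the B-lymphoid programme MV4-11 carries before the inhibitor; the MV4-11 DMSO libraries of this comparison are shared with the known one. BCL11A separated the lines by the widest margin of the members, with 106 ± 0.950 CPM in MV4-11 and 0.612 ± 0.664 CPM in OCI-AML3 (SD, n = 3 each). Its log2 fold change was 7.38 (SE 0.209). IRF4 had 35 counts in all in MV4-11 and 2 in OCI-AML3, a ratio of 14.4 (95% counting interval 3.70 to 124). BLNK had 24 counts against 1, a ratio of 19.8 (3.22 to 813). For BCL11A, IRF4 and BLNK the MV4-11 libraries lay above the OCI-AML3 libraries. No p-value between the lines is given for BCL11A, IRF4, BLNK, PAX5 and CD79A, which entered the fit only through MV4-11.

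PAX5 under DMSO had a log2 fold change of 1.40 (SE 0.578) in favour of MV4-11, from 42 counts in MV4-11 and 13 in OCI-AML3. The libraries of the lines overlapped. Its edgeR call was lost without MV4-11 DMSO replicate 2 (log2 fold change 0.74), OCI-AML3 DMSO replicate 1 (1.54) or OCI-AML3 DMSO replicate 2 (1.10). By limma-voom PAX5 was not called (1.18). CD79A was not called (log2 fold change 0.69, SE 0.720), except without OCI-AML3 DMSO replicate 1 (2.17), and its log2 fold change was -0.18 without MV4-11 DMSO replicate 1. SPIB had 5.86 ± 0.259 CPM in MV4-11 and 5.46 ± 0.531 CPM in OCI-AML3 (log2 fold change 0.11, SE 0.180, edgeR adjusted p = 0.623). Its ratio of summed counts scaled by library size was 1.08 (95% counting interval 0.900 to 1.29). CD22, CD79B and POU2AF1 had 9, 6 and 5 counts in MV4-11 DMSO and 1, 1 and 6 counts in OCI-AML3 DMSO. Of the 6 tested members 4 were called higher in MV4-11 (BCL11A, IRF4, BLNK and PAX5) and none lower, against 32.1% of all tested genes called higher and 65.5% in either direction. Libraries of 4 of the 9 members did not overlap (BCL11A, IRF4, BLNK and CD22), against 35.4% of all tested genes in that direction, a set without CD22, CD79B and POU2AF1.

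Under AC220, every one of the 9 members had all its MV4-11 libraries above its OCI-AML3 libraries, against 36.4% of all tested genes. The tested genes do not include POU2AF1, CD79B and CD22, and for CD79B the order rested on 4 counts against 1. All 6 tested members were called higher, against 36.7% of all tested genes called higher and 76.2% in either direction. These counts contain the MV4-11 AC220 libraries and are a description. PAX5 had 3.89 ± 0.580 CPM in MV4-11 and 0.239 ± 0.152 CPM in OCI-AML3, and CD79A 4.06 ± 0.450 and 0.132 ± 0.116 CPM. The log2 fold change of PAX5 was 4.03 (4.15 without MV4-11 AC220 replicate 1) and that of CD79A 4.90 (5.01). IRF4 had 40 counts in MV4-11 and 0 in OCI-AML3, with an exact 95% lower limit of 11.7 on the ratio (15 with OCI-AML3 set at the floor of 3 counts). CD22 had 19 and 0 counts, with a lower limit of 5.27 (7.15 at the floor). Ordered by mean level, PAX5 and CD79A both ran from OCI-AML3 AC220 through OCI-AML3 DMSO and MV4-11 DMSO up to MV4-11 AC220. The OCI-AML3 groups overlapped with each other, and MV4-11 DMSO overlapped with OCI-AML3 DMSO and, for PAX5, also with OCI-AML3 AC220. MV4-11 AC220 overlapped with no other group.

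Other genes of the B lineage were taken from 6 lists with 89 genes, of which 88 had a row and 56 passed the filter. In MV4-11, AC220 raised 23 of the 56 and lowered 11, or 60.7% called, against 58.3% of all genes tested. The median log2 fold change was 0.18, against 0.065 over all genes. By that measure the B-lineage lists were close to the rest of the transcriptome, and the genes went both ways within each larger list. The counts by list below are to be read beside 31.5% of all tested genes called higher and 26.9% called lower. Without MV4-11 AC220 replicate 1, 21 of the 22 genes named by rule in these lists kept their call, and NFATC1 did not (log2 fold change -0.24, edgeR adjusted p = 0.0782).

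Of 20 tested B-lineage transcription factors 7 rose in MV4-11 and 4 fell. POU2F2, the octamer-binding partner of POU2AF1, rose to 241 ± 17.2 CPM in MV4-11 AC220, against 138 ± 7.11 CPM in MV4-11 DMSO (log2 fold change 0.80, SE 0.0883, edgeR adjusted p = 1.34e-08), and TCF4 (0.67) and ID2 (0.91), an antagonist of E proteins, rose with it. PRDM1, the factor that drives plasma-cell development and represses PAX5, rose to 5.83 ± 1.43 CPM in MV4-11 AC220, against 0.976 ± 0.412 CPM in MV4-11 DMSO (log2 fold change 2.56, SE 0.333, edgeR adjusted p = 1.36e-07). BCL6, the germinal-centre repressor, rose as well (1.69, SE 0.357, edgeR adjusted p = 0.000174). XBP1, the plasma-cell and stress factor, fell by 1.47, ETS1 by 2.24 and IKZF2 by 1.37. TCF3, the E protein that acts with PAX5, had 107 ± 5.39 CPM in MV4-11 AC220 and 106 ± 4.56 CPM in MV4-11 DMSO (log2 fold change 0.01, adjusted p = 0.880). EBF1, which lies upstream of PAX5 in B-cell development, went the other way: it had 0, 1 and 0 counts in MV4-11 AC220, against 7, 8 and 4 counts in MV4-11 DMSO (19 counts over 1, a ratio of 13.7 with a 95% counting interval of 2.18 to 570, edgeR adjusted p = 0.00291). EBF1 was higher in OCI-AML3, with 115 counts in all under each exposure, and its line difference under DMSO was -2.85 on the log2 scale (SE 0.386). No p-value is given for that difference, since EBF1 passed the count filter only through OCI-AML3. EBF1, TCF3, PRDM1 and BCL6 were picked for mention after their values were seen.

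Among 20 tested genes of B-cell receptor signalling 9 rose and 3 fell in MV4-11. DAPP1, an adaptor of the PI3K branch, rose to 14.2 ± 0.809 CPM in MV4-11 AC220, against 2.33 ± 0.388 CPM in MV4-11 DMSO (log2 fold change 2.61, SE 0.229, edgeR adjusted p = 6.09e-11). The kinases PRKCB (1.06), PIK3CD (0.62), SYK (0.60) and BTK (0.90) rose, which act beside BLNK in the chain. FYN fell by 3.17, LYN by 0.22 and the transcription factor NFATC1 by 0.28.

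Of 7 tested surface genes 4 rose in MV4-11 and 1 fell. The tetraspanin CD37 rose to 522 ± 58.9 CPM in MV4-11 AC220, against 133 ± 6.09 CPM in MV4-11 DMSO (log2 fold change 1.97, SE 0.0778, edgeR adjusted p = 5.38e-19). CD180 (1.16) and its partner LY86 (1.00), which pair on B cells and myeloid cells, and the chemokine receptor CXCR5 (1.80) rose. FCER2, the low-affinity IgE receptor CD23, fell by 0.79. Of 6 receptor inhibitors 3 rose, DOK3 (0.48), SIGLEC10 (0.87) and LAIR1 (0.19), and none fell. In the list of pre-B receptor and recombination genes 2 passed the filter and both fell, IGLL1, the surrogate light chain, by 0.41 and UNG, a uracil glycosylase of all cycling cells, by 1.70. The single tested plasma-cell gene, DERL3, fell by 1.06.

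**Figure D3:**
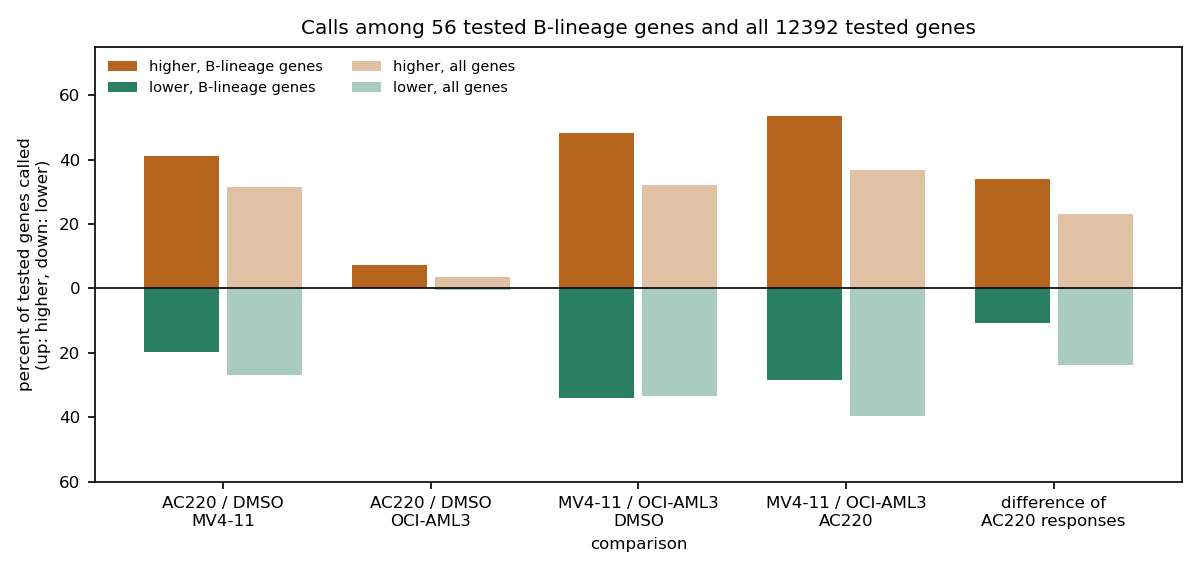
Percent of tested genes called higher (up) or lower (down) at an adjusted p under 0.05 in 5 comparisons (horizontal axis), for 56 B-lineage genes (dark) and for all 12392 tested genes (pale). In MV4-11, 23 B-lineage genes were called higher and 11 lower under AC220, and in OCI-AML3 4 and 0.

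In OCI-AML3, AC220 raised 4 of the 56 genes (7.14%) and lowered none, against 3.95% of all tested genes called in either direction and 3.44% called higher. They were GRB2 (0.33, edgeR adjusted p = 0.0105), DOK3 (0.42, 0.0185), SYK (0.31, 0.0252) and CD180 (0.48, 0.0403). None of these 4 was called without OCI-AML3 AC220 replicate 3, OCI-AML3 DMSO replicate 1 or OCI-AML3 DMSO replicate 2, nor with limma on the deposited normalised values, and GRB2 alone was called without OCI-AML3 AC220 replicate 2. Of 19 alternatives CD180 lost its call in 11, among them median-ratio size factors, limma-voom, the replicate block and the compared libraries alone, DOK3 and SYK in 5 and GRB2 in 4. No transcription factor of the list was called with TMM scaling and the count filter on all 12 libraries. MYB was called by edgeR with median-ratio size factors, without the count filter or on the compared libraries alone, and by DESeq2, and IRF8 by DESeq2 and limma-voom. EBF1 had a log2 fold change of 0.02 (SE 0.297, adjusted p = 0.994) and POU2F2 of -0.21 (SE 0.141, adjusted p = 0.419).

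Between the lines under DMSO 27 of the 56 genes were higher in MV4-11 and 19 lower (82.1% called, against 65.5% of all genes), with a median log2 fold change of 0.22 against 0.0054 over all genes. IGLL1 had 1269 counts in MV4-11 and 2 in OCI-AML3, a ratio of 523 (95% counting interval 144 to 4320), uncertain because close copies of the gene exist, and FCER2 had 2556 against 3, a ratio of 702 (240 to 3410). POU2F2 (3.92), the inhibitory receptor CD72 (3.50), CD180 (2.77) and CD37 (2.02) were higher in MV4-11. ID3, with 3 counts in MV4-11 and 448 in OCI-AML3, FOXO1 (-5.31), CD40 (-4.15), CD38 (-2.25) and TCF4 (-1.64) were lower in MV4-11. Of the 20 tested B-lineage transcription factors 9 were called higher in MV4-11 and 9 lower, FOXO1 and EBF1 among the lower. Over all tested genes 32.1% were called higher and 33.4% lower.

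**Figure D4:**
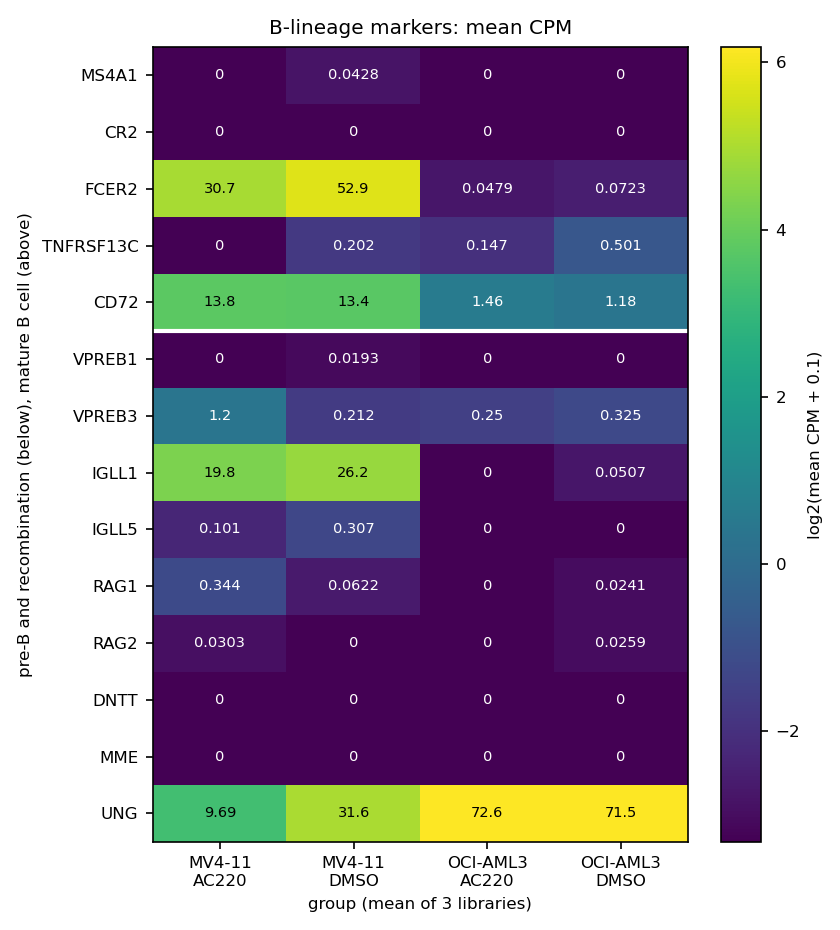
Mean CPM of 3 libraries for 5 of the 6 mature B-cell markers (above the white line) and 9 of the 10 pre-B receptor and recombination genes (below it; 1 gene of each list is not shown) in the 4 groups, with colour on the log2(mean CPM + 0.1) scale. FCER2, CD72 and IGLL1 were present in MV4-11, while CR2, DNTT and MME had no counts in any group.

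Markers of mature B cells were found in part. Of the 6 markers, 3 exceeded 1 CPM in MV4-11, FCER2 and CD72 among them. MS4A1, which encodes CD20, and CR2 had 2 counts and none in the 12 libraries. The summed level of the 6 markers was 40.3 to 53.1 CPM in MV4-11 AC220 and 67.0 to 68.5 CPM in MV4-11 DMSO. In OCI-AML3 it was 1.44 to 2.15 CPM under AC220 and 1.71 to 2.10 CPM under DMSO. The lower sum in MV4-11 AC220 came from FCER2, with 30.7 ± 7.66 CPM against 52.9 ± 1.29 CPM in MV4-11 DMSO. CD72 stood at 13.8 ± 1.40 CPM in MV4-11 AC220 and 13.4 ± 0.943 CPM in MV4-11 DMSO.

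SPIB, BCL11A, BLNK and TCF4 are also genes of plasmacytoid dendritic cells. The summed level of 8 markers of those cells was 108 to 122 CPM in MV4-11 AC220 and 78.8 to 83.8 CPM in MV4-11 DMSO, most of it IL3RA (87.4 ± 5.84 and 53.2 ± 0.734 CPM), the interleukin-3 receptor chain that myeloid leukaemias also express. The defining markers CLEC4C and LILRA4 stood at 0.121 and 0.381 CPM in MV4-11 AC220 and at 0.0856 and 0.0835 CPM in MV4-11 DMSO. T-cell markers summed to 131 to 163 CPM in MV4-11 AC220 and 70.8 to 76.1 CPM in MV4-11 DMSO, of which CD4, a gene of monocytes too, held 143 and 72.0 CPM on average, and 1 of the 11 markers exceeded 1 CPM. NK-cell markers summed to 108 to 114 CPM in MV4-11 AC220 and 133 to 145 CPM in MV4-11 DMSO, most of it NCAM1 (84.7 ± 0.550 and 127 ± 5.58 CPM). NKG7 went the other way, with 25.5 ± 2.77 CPM in MV4-11 AC220 and 12.1 ± 0.805 CPM in MV4-11 DMSO. Erythroid markers summed to at most 1.73 CPM in any library. The part of these markers in the member values was not tested.

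The genes whose levels ran most like a member's over the 12 libraries were ranked by the root mean square difference of gene-centred log2 CPM among 11903 protein-coding genes, as a description. For CD79A they were ADGRE1 (0.503), SAMSN1 (0.548) and DAPP1 (0.651), where the median gene stood at 1.74. For PAX5 they were TLR5 (0.458), ZNF385A (0.458) and CYP27A1 (0.463), against a median of 1.49. For SPIB they were SLC25A23 (0.146), ZNF296 (0.155) and SLC15A3 (0.160), against 0.770. BCL11A ran closest to FCER2 (0.397), APP (0.437) and ZNF185 (0.508), against 3.83. Under AC220 in MV4-11 the log2 fold change of FCER2 was -0.79, against -0.02 for BCL11A. BLNK ran closest to C16orf74 (0.147), PINK1 (0.223) and RASA4B (0.234), against 1.38, and IRF4 to ZNF274 (0.318), SAT1 (0.371) and BEND6 (0.372), against 1.42. ADGRE1 averaged 2.58 ± 0.544 CPM in MV4-11 AC220, 0.289 ± 0.0960 CPM in MV4-11 DMSO, 0.0540 CPM in OCI-AML3 AC220 and 0.104 CPM in OCI-AML3 DMSO, the same order of the lines and exposures as CD79A.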

How the data were processed

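Total RNA of 12 libraries was sequenced from the 3' end of transcripts (Lexogen QuantSeq, per the labels' protocols), so a count does not grow with transcript length. The submitters' processing notes name cutadapt 1.9.1, HISAT2 2.0.4, Subread 2.0.0, featureCounts, limma 3.42.2 and the build hg19; the sources used here do not give annotation, strand setting or multi-mapping. Raw counts by gene symbol were deposited by the authors; 1 unnamed row (0.00343% to 0.00503% of counts) was removed. The authors also deposited log2 normalised values of 11075 genes, named as voom-limma output, used only as an alternative.

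Genes were filtered with filterByExpr (12392 kept), scaled by TMM and tested with edgeR 4.0.16 (R 4.3.3, quasi-likelihood F test, robust) on all 12 libraries (1 coefficient for each group, 8 residual degrees of freedom); p-values were adjusted by Benjamini-Hochberg across the tested genes, with a threshold of 0.05. The common biological coefficient of variation was 8.28%. The SE is the log2 fold change divided by the root of F. CPM use TMM-scaled library sizes. Ratios of summed counts carry exact 95% intervals, and the floor is 3 counts; both cover counting error only. The procedure was tested on simulated data.

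The 9 members and the 6 B-lineage lists were chosen with earlier results of these data known, the responses of PAX5, CD79A and XBP1 in MV4-11 among them. Text names all members, and in each list up to 3 called genes in each direction with the smallest adjusted p, beside a few list genes chosen after their values were seen (EBF1, TCF3, PRDM1, BCL6, MYB, IRF8, SYK, BTK, LY86, CD38, FOXO1, VPREB3, RAG1, RAG2, MZB1, TNFRSF13C). Alternatives were median-ratio size factors, no count filter, DESeq2 1.42.0, limma-voom (limma 3.58.1), limma on the deposited values, a replicate block, the compared libraries alone, and leaving out each library. No pair of libraries was identical or within sampling noise of the other, so none was merged, which does not show separate cultures. Promoters came from RefSeq (GRCh38.p14) and gene overlaps from GENCODE 29; symbols were matched as deposited. Results for some list genes are not reported here.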

Additional observations from a re-analysis of the deposited data

Results flagged for a closer look

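For 3 of the 9 members the fitted AC220 response was higher in MV4-11 than in OCI-AML3, past the threshold in the fit of the interaction. The differences, MV4-11 minus OCI-AML3, were 4.21 for CD79A, 2.63 for PAX5 and 1.36 for SPIB on the log2 scale. The members were chosen with the MV4-11 response known, and the interaction contains that response, so these values restate the choice and stand as no test; CD79A and PAX5 rest on at most 13 counts a group in OCI-AML3.

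Among the other B-lineage genes, by edgeR's quasi-likelihood test of the interaction, the difference was positive for CXCR5 (2.15, adjusted p = 9.63e-09), CD37 (2.10, 5.99e-15), LY86 (1.37, 1.09e-05), PRKCB (1.05, 1.11e-10), BTK (1.04, 1.05e-05), POU2F2 (1.01, 1.41e-05), ID2 (0.84, 3.70e-08), PIK3CD (0.79, 8.28e-08) and TCF4 (0.58, 6.66e-05). It was negative for EBF1 (-3.42, adjusted p = 0.0062, with 1 count in MV4-11 AC220), FYN (-3.26, 1.29e-10), ETS1 (-2.50, 2.46e-08), UNG (-1.73, 3.55e-11) and DERL3 (-1.24, 0.000493). For XBP1 it was -1.64, given without a p-value because its MV4-11 response was known when the lists were chosen. Of the 56 genes 19 differed upward and 6 downward, against 23% and 23.7% of all tested genes.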

How the results depend on the processing

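No result reversed its sign with a call under any alternative run. The member calls for AC220 in OCI-AML3 were 0 under every alternative. Those for MV4-11 against OCI-AML3 under DMSO numbered 2 in place of 4 with limma on the deposited values, which hold 4 of the members, and ran from 3 to 4 when each library was left out. Those for the difference of responses ran from 1 to 3 when each library was left out. The B-lineage genes called for AC220 in OCI-AML3 numbered 4, against 7 by DESeq2 and 0 with limma on the deposited values (18 at an unadjusted p under 0.05), and ran from 0 to 9 over the left-out libraries, with 9 without MV4-11 AC220 replicate 1, 7 without OCI-AML3 AC220 replicate 1 or OCI-AML3 DMSO replicate 3, 1 without OCI-AML3 AC220 replicate 2, and 0 without OCI-AML3 AC220 replicate 3, OCI-AML3 DMSO replicate 1 or OCI-AML3 DMSO replicate 2; the cause was not tested. The other counts of calls stayed within 1.5 times. Genes called over the whole table for AC220 in OCI-AML3 were 489, against 836 without the count filter, 813 by DESeq2 and 118 with limma on the deposited values, and 13 (without OCI-AML3 DMSO replicate 1) to 1139 (without MV4-11 AC220 replicate 1) over the left-out libraries.

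Same-numbered libraries of AC220 and DMSO did not deviate together in MV4-11 (r of their deviations from -0.12 to -0.0803, and 0 of 6 libraries correlated best with their own number). In OCI-AML3 they deviated together weakly (r from 0.0494 to 0.18, and 5 of 6 libraries correlated best with their own number). Whether same-numbered OCI-AML3 libraries share more than a number was not tested. With the replicate block the member calls stayed at 4 (AC220 in MV4-11), 0 (AC220 in OCI-AML3), 4 (lines under DMSO), 6 (lines under AC220) and 3 (difference of responses), and the B-lineage calls stood at 33, 4, 46, 46 and 25; among the 4 in OCI-AML3, PIK3AP1 took the place of CD180. A fit of the compared libraries alone was not made for the difference of responses, which uses all 12. Depth limits 8 of the 9 members in OCI-AML3, where each had at most 25 counts over a group.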

Other observations

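Several B-lineage genes that did not pass the count filter had a few counts in MV4-11, and were chosen for mention after their values were seen. VPREB3, a gene of early B cells, had 17, 18 and 7 counts in MV4-11 AC220 and 1, 0 and 9 counts in MV4-11 DMSO. RAG1, of the recombinase, had 10, 0 and 3 counts in MV4-11 AC220 and 1, 0 and 2 counts in MV4-11 DMSO, and RAG2 had 1 and 0 counts in all. MZB1, of plasma cells, had 9, 6 and 11 counts in MV4-11 AC220, 10, 4 and 1 counts in MV4-11 DMSO and none in OCI-AML3. TNFRSF13C, the BAFF receptor, had 0 counts in MV4-11 AC220, against 6, 3 and 1 counts in MV4-11 DMSO.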
